A study of Mus musculus with 15 samples.

Results

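Apolipoproteins are the protein coats of the particles that carry triglyceride and cholesterol in blood, and lipoprotein lipase (Lpl) is the enzyme on the vessel wall that cuts triglyceride out of those particles. Apoc3, Apoa1, Apoc1, Apoe, Apom, Apod, Apoh and Lpl, 8 genes of this system, were looked at in mouse kidney. The genes were chosen by name, with their measured levels and fold changes in these arrays already known, and every probe carrying one of the names in the platform annotation was taken. Of the 8 genes, 7 had a named probe, against 19038 named genes in the whole series, and they were read by 10 probes. Apod had no probe under its name in the annotation used here and was not analysed here.

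Male C57BL/6 mice were weaned at 3 weeks of age and fed AIN-93G diet freely throughout. Control mice (CON) had water at all times, and water-restricted mice (RES) had a bottle for 15 min a day and were killed 24 h after the last one. CON 1W and RES 1W were 4 weeks old and CON 4W and RES 4W were 7 weeks old, that is 1 and 4 weeks after the start. According to the paper, restricted mice ate less at first and reached a normal intake after the first week. Less water and less food therefore cannot be told apart in the restricted groups. Each of the 15 arrays (3 for CON 4W and 4 for each other group) held kidney RNA, in which fewer cells of a type and less RNA per cell cannot be told apart. Levels below are log2 values on an Illumina bead array, where a probe with no signal lies near 4.4 because a constant of 16 was added before the log, so fold changes of dim probes are understated. A level says nothing of one gene against another, since each probe binds with its own strength.

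The liver makes most circulating Apoa1, Apoc3 and Apoh, whereas Apoe is also made by macrophages and Apom by the kidney tubule. Apoc3 slows the clearance of triglyceride-rich particles, Apoa1 is the main protein of high density lipoprotein, and Apoe is the ligand by which remnant particles enter cells. In the kidney, the tubule takes filtered apolipoproteins back up through the receptors megalin (Lrp2) and cubilin (Cubn).

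Apoc3, Apoa1, Apoc1 and Apoe lie in 2 clusters of apolipoprotein genes. RefSeq places Apoa1, Apoc3, Apoa4 and Apoa5 next to each other in that order on chromosome 9, and Apoc2, Apoc4, Apoc1 and Apoe in that order on chromosome 7. Apom lies on chromosome 17, Apoh on chromosome 11 and Lpl on chromosome 8. Windows of 250 bases before the transcription start (RefSeq, GRCm38.p6) were at hand for 5 of the 8 genes and 6 other apolipoprotein genes, but not for Apoc3, Apoc1 or Lpl. The windows of Apoa1, Apoa4 and Apob are printed, because Apoa1 is the neighbour of Apoc3 with another order of groups and Apoa4 and Apob are the partner apolipoprotein genes that passed the test between the ages. Capitals mark matches to CAAAGNNCA, the core of the element bound by the liver and kidney factor Hnf4a, and to TATAAA, both searched on either strand.
Apoa1, chr9:46228380-46228629, plus strand: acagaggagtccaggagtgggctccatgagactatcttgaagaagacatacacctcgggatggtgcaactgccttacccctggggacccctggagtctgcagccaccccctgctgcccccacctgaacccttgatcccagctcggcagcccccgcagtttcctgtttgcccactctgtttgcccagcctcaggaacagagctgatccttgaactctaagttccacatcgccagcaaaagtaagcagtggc
Apoa4, chr9:46240594-46240843, plus strand: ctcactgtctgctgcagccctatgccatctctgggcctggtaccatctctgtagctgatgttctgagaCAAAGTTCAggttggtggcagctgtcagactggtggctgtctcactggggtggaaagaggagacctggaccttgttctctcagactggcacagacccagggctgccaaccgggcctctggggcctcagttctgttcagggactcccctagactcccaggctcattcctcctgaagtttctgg
Apob, chr12:7977427-7977676, plus strand: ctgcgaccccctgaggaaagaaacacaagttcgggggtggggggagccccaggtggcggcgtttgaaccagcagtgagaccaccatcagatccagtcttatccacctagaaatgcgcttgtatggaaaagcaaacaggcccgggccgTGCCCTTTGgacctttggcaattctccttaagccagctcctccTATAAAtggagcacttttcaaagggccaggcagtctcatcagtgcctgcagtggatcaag
The Apoa4 window held CAAAGTTCA at positions -182 to -174 from the start. The Apob window held the core on its minus strand, printed as TGCCCTTTG, at positions -103 to -95, and TATAAA at positions -60 to -55. The Apoa1 window held neither run of letters. Of the windows not printed, that of Apoh held the core as CAAAGCGCA at positions -93 to -85, and windows of Apoe, Apoa2 and Apoa5 held TATAAA. Among all 32851 windows of this length 5.49% held CAAAGNNCA and 12.4% held TATAAA. A match, or the lack of one, is therefore a description of the letters only.

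Between 15295 and 17433 of 45281 probes were detected per array (detection p under 0.05), and 19027 probes detected in at least 3 arrays were tested. The array of RES 4W replicate 1 stood apart. Its mean correlation with the other RES 4W arrays was 0.978, below its mean of 0.988 with the CON 4W arrays, and its nearest array was CON 4W replicate 3. Comparisons of RES 4W with CON 4W are therefore given with and without it for each gene named in them by its brightest probe. The array was singled out from these same levels, so p-values without it can be too small. Cell type markers are given with all arrays only. In the column order of the deposited intensities RES 4W replicate 1 came directly after the CON 4W arrays and apart from the other RES 4W arrays. Slide positions are not labelled, so whether position had a part was not tested. Of the defining transcripts of kidney, Slc34a1 of the proximal tubule, Umod of the thick ascending limb and Aqp2 of the collecting duct were detected in all 15 arrays. Of the 10 hepatocyte markers, which include Apoa2, Alb, Ahsg, Fgb and Cps1 were detected in 0 arrays, Ttr, Fga, Fgg and Apoa2 in 15 and Serpina1a in 14.

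Of the 10 probes, 9 passed the filter and gave values for 6 genes: Apoc3, Apoa1, Apoe, Apoc1, Apom and Lpl. The remaining gene was Apoh, a phospholipid-binding plasma glycoprotein, whose single probe (ILMN_1243128) was detected in 0 of 15 arrays, with deposited intensities between -8.52 and 7.22 and a lowest detection p of 0.108. The levels of the 6 genes are descriptions without a p-value, because these levels were known when the genes were listed.

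**Figure D1:**
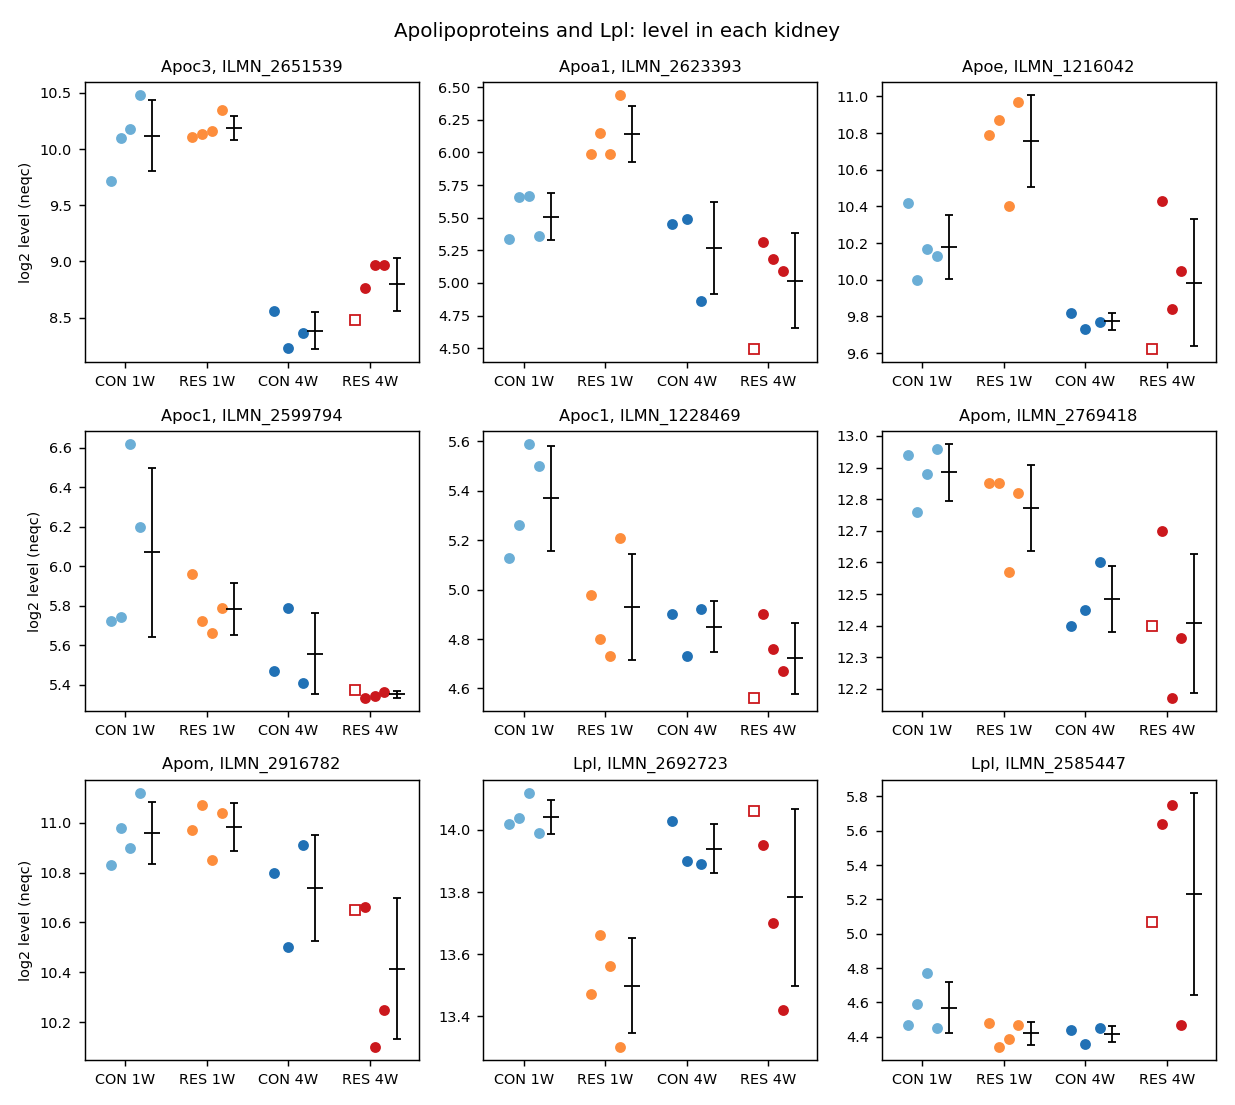
Level of each tested probe (log2, y axis) in each kidney array, grouped by age and water (x axis), with 1 point per array, black marks for mean ± SD and an open square for RES 4W replicate 1. Apoc3 lies between 9.72 and 10.48 in both 1W groups and between 8.23 and 8.97 in both 4W groups, while Lpl by ILMN_2692723 is lowest in RES 1W.

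Apoc3 had the widest difference with age. Its probe (ILMN_2651539) read 9.72, 10.10, 10.18 and 10.48 in CON 1W and 8.56, 8.23 and 8.36 in CON 4W. No array of the older control mice came near the younger ones, and the level was 3.34-fold lower in CON 4W (log2 fold change -1.74, SE 0.16). In RES 1W it read 10.11, 10.13, 10.16 and 10.35, overlapping CON 1W (log2 fold change 0.07, SE 0.15). In RES 4W the level was 8.48, 8.76, 8.97 and 8.97, of which the first is the array that stood apart. RES 4W differed from CON 4W by 0.41 (SE 0.16) with overlapping arrays, and by 0.51 without replicate 1, when all 3 remaining arrays lay above CON 4W. In the order RES 1W (10.19 ± 0.11, SD, n = 4), CON 1W (10.12 ± 0.31, n = 4), RES 4W (8.79 ± 0.23, n = 4) and CON 4W (8.38 ± 0.17, n = 3), the one step without overlap was that between the ages. The 3 genes whose levels followed Apoc3 most closely over the 15 arrays were Eln, the elastic fibre protein elastin (root mean square difference of centred log2 levels 0.36), Apoa4 (0.37) and Ung, a uracil-removing DNA repair enzyme (0.37).

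Apoa1, next to Apoc3 on chromosome 9, was dim and had another order of groups. Its probe (ILMN_2623393) read 5.34, 5.66, 5.67 and 5.36 in CON 1W and 5.99, 6.15, 5.99 and 6.44 in RES 1W. Every RES 1W array lay above every CON 1W array, a 1.55-fold higher level (log2 fold change 0.64, SE 0.18). In the older mice it read 5.45, 5.49 and 4.86 in CON 4W and 4.49, 5.31, 5.18 and 5.09 in RES 4W. Those groups overlapped (log2 fold change -0.24, SE 0.19, and -0.07 without RES 4W replicate 1), and the probe was not detected in CON 4W replicate 3 and RES 4W replicate 1. CON 4W and CON 1W overlapped as well (-0.24, SE 0.19). The difference between the restriction effects at 4 weeks and at 1 week was -0.88 (SE 0.27), and -0.70 without RES 4W replicate 1. Of the hepatocyte markers, 5 of 10 were tested and their summed intensity was 2313 to 3502 in CON 1W against 2060 to 2531 in RES 1W, 2811 to 3985 in CON 4W and 1742 to 3068 in RES 4W, a sum to which the bright Ttr added most. In RES 1W Fga differed by 0.70 (limma adjusted p = 0.078), Serpina1a by 0.76 (adjusted p = 0.082) and Ttr by -0.45 (adjusted p = 0.45). Apoa2 differed there by 0.07 (adjusted p = 0.9) and Fgg by 0.04 (adjusted p = 0.95). In RES 4W against CON 4W, with all arrays, Ttr differed by -1.06 (limma adjusted p = 0.031) and Apoa2 by 0.52 (adjusted p = 0.046). Fga (0.19, adjusted p = 0.64), Serpina1a (-0.10, adjusted p = 0.83) and Fgg (-0.04, adjusted p = 0.89) did not pass in that comparison. The part of these markers in the Apoa1 levels was not tested. Grin3a, a glutamate receptor subunit (0.27), Gldc, the glycine decarboxylase (0.28), and Upp2, a uridine phosphorylase (0.28), had the nearest patterns. Gldc stood at a mean of 11.80 in CON 1W, 12.72 in RES 1W, 11.86 in CON 4W and 11.73 in RES 4W. In the same order Grin3a, which was dim, stood at 5.17, 5.59, 4.65 and 4.66. Upp2 stood at 6.45, 6.68, 6.28 and 5.66.

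Apoe, the remnant ligand, was also highest in RES 1W. Its probe (ILMN_1216042) read 10.42, 10.00, 10.17 and 10.13 in CON 1W and 10.79, 10.87, 10.40 and 10.97 in RES 1W. RES 1W replicates 1, 2 and 4 lay above all controls and replicate 3 lay just under the highest control, for a 1.49-fold higher mean (log2 fold change 0.58, SE 0.16). In the older mice it read 9.82, 9.73 and 9.77 in CON 4W and 9.62, 10.43, 9.84 and 10.05 in RES 4W. CON 4W lay below CON 1W in every array (-0.41, SE 0.17). RES 4W differed from CON 4W by 0.21 (SE 0.17), and by 0.33 without replicate 1, when the other 3 arrays lay above CON 4W. Macrophages, a known source of Apoe, were followed by 8 markers of which 6 were tested, and their summed intensity was 467 to 493 in CON 1W, 341 to 375 in RES 1W, 436 to 559 in CON 4W and 482 to 669 in RES 4W. The macrophage marker Mrc1 was lower in RES 1W (log2 fold change -0.68, limma adjusted p = 0.018), the defining marker Adgre1 was detected in 0 arrays, and the part of these markers in the Apoe levels was not tested.

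Apoc1, the neighbour of Apoe on chromosome 7 and an inhibitor of particle uptake, was dim on both of its probes. By the brighter probe (ILMN_2599794) it read 5.72, 5.74, 6.62 and 6.20 in CON 1W, 5.96, 5.72, 5.66 and 5.79 in RES 1W, 5.47, 5.79 and 5.41 in CON 4W, and 5.37, 5.33, 5.34 and 5.36 in RES 4W. The spread within CON 1W (SD 0.43) came from replicates 3 and 4, and the groups followed the order CON 1W, RES 1W, CON 4W, RES 4W, each lower than the one before and with overlap between neighbours except the last pair. CON 4W differed from CON 1W by -0.51 (SE 0.18), a value that ran from -0.63 to -0.33 as single arrays were left out. The other probe (ILMN_1228469), detected in 9 arrays, differed by -0.52 (SE 0.14) with no overlap between the ages and by -0.44 (SE 0.13) between RES 1W and CON 1W, where the brighter probe gave -0.29 (SE 0.16). In RES 4W against CON 4W the brighter probe differed by -0.21 (SE 0.18) with every RES 4W array lower, and the other by -0.13 (SE 0.14) with overlap. Without RES 4W replicate 1 these values were -0.21 and -0.07.

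Apom, the carrier of sphingosine-1-phosphate in high density lipoprotein, was bright on both probes, and its group means lay within 0.48 and 0.57 of each other on the log2 scale. By ILMN_2769418 it read 12.94, 12.76, 12.88 and 12.96 in CON 1W and 12.40, 12.45 and 12.60 in CON 4W. The older controls were lower in every array, by 1.32-fold (log2 fold change -0.40, SE 0.12). RES 1W stood at 12.85, 12.85, 12.57 and 12.82 and RES 4W at 12.40, 12.70, 12.17 and 12.36, both overlapping their controls (-0.12, SE 0.11, and -0.08, SE 0.12). The second probe (ILMN_2916782) differed by -0.22 (SE 0.14) with age and by -0.32 (SE 0.14) between RES 4W and CON 4W, where the first gave -0.08, with overlap in each case. Without RES 4W replicate 1 that comparison gave -0.40 by ILMN_2916782 and -0.07 by ILMN_2769418.

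Lpl was lower after 1 week of restriction. Its brighter probe (ILMN_2692723) read 14.02, 14.04, 14.12 and 13.99 in CON 1W and 13.47, 13.66, 13.56 and 13.30 in RES 1W. The highest RES 1W array lay under the lowest control, and the level was 1.46-fold lower (log2 fold change -0.55, SE 0.13). In the older mice it read 14.03, 13.90 and 13.89 in CON 4W and 14.06, 13.95, 13.70 and 13.42 in RES 4W. These overlapped (-0.16, SE 0.14, and -0.25 without replicate 1, the highest RES 4W array), and CON 4W was close to CON 1W (-0.10, SE 0.14). Adipocytes are a known source of Lpl. Of 7 adipocyte markers only Adipoq was tested, at -0.86 in RES 1W (limma adjusted p = 0.24) and -0.82 in RES 4W (adjusted p = 0.17), and Plin1, Cidec, Fabp4 and Retn were detected in 0 arrays. The summed adipocyte intensity was 8 to 84 in CON 1W, 9 to 28 in RES 1W, 27 to 43 in CON 4W and 0 to 29 in RES 4W, and the part of these markers in the Lpl levels was not tested.

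The second Lpl probe (ILMN_2585447), which the annotation ties to another transcript record than the first, was dim. It was not detected in any array of CON 1W, RES 1W or CON 4W, where its level lay between 4.34 and 4.77, and it was detected in RES 4W replicates 1, 2 and 3 at 5.07, 5.64 and 5.75 but not in replicate 4 at 4.47. The RES 4W mean was at least 1.28-fold higher than CON 4W, as a bound against the lowest detected signal, and the measured difference was 0.82 (SE 0.22). Without RES 4W replicate 1 the probe did not pass the filter on dim probes. Replicate 4 at 4.47 and the highest control at 4.45 were both undetected, so their order carries no meaning. The dim probe passed the filter only through RES 4W, the group where it was high, while the bright probe overlapped its controls there. Which transcripts each probe reads was not tested.

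**Figure D2:**
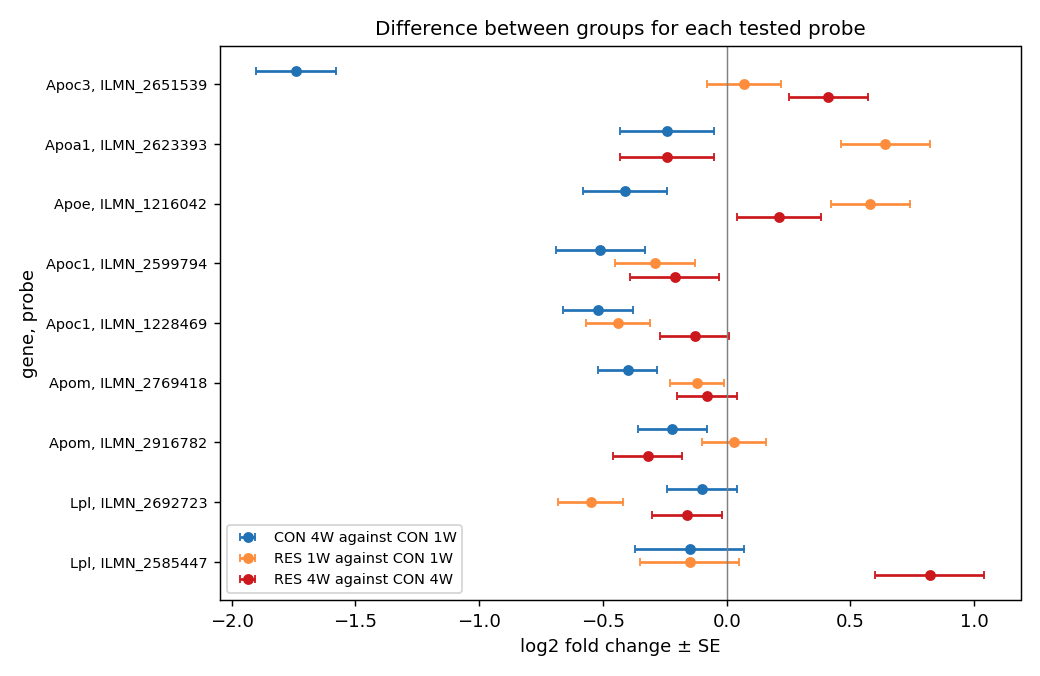
Log2 fold change with its SE (x axis) of each tested probe (y axis) for the age comparison of the controls (blue) and for restriction after 1 week (orange) and 4 weeks (red). Apoc3 stands at -1.74 between the ages, and in RES 1W Apoa1 and Apoe stand at 0.64 and 0.58 while Lpl by ILMN_2692723 stands at -0.55.

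Counted over the brightest probe of each of the 6 genes, 3 genes (Apoc3, Apoe and Apom) had every CON 4W array below every CON 1W array and 0 had every array above, where 8.94% of all tested probes were below and 7.74% above. In RES 1W against CON 1W 1 gene lay above (Apoa1) and 1 below (Lpl), beside 5.12% and 4.97% of all probes. In RES 4W against CON 4W 1 gene lay below (Apoc1) and 0 above, beside 7.36% and 7.33%. Without RES 4W replicate 1, 2 genes lay above (Apoc3 and Apoe) and 1 below, beside 21.1% and 19.4% of all probes (40.4% in either direction, against 14.7% with all arrays). In either direction the age comparison had 16.7% and restriction after 1 week 10.1%. The genes were listed with these levels known, so nothing is read from those counts. The median log2 fold change of the 6 genes was -0.41 with age, -0.03 in RES 1W and -0.12 in RES 4W, where all tested probes had a median of 0. The age comparison shares CON 1W with the first restriction comparison and CON 4W with the second.

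Partners of these genes were taken as 66 genes in 5 lists, of which 56 had a named probe. By limma 42 were tested, each from its brightest probe and adjusted over all tested probes. The lists were chosen with earlier results of these data known. The p-values do not allow for that choice, and the counts are descriptions. Among the other apolipoproteins 5 of 8 were tested, and 1 rose and 1 fell between CON 1W and CON 4W, where 1.18% of all tested probes rose and 1.79% fell (2.97% in all). Apoa4, the intestinal apolipoprotein beside Apoc3, read 8.65, 8.83, 8.87 and 8.88 in CON 1W and 7.40, 7.06 and 7.48 in CON 4W. It fell 2.82-fold (log2 fold change -1.50, SE 0.16, limma adjusted p = 6.8e-05), and a second probe (ILMN_2834123) fell by 1.31 on the log2 scale (adjusted p = 8e-04). A dimmer probe (ILMN_2754104) was detected in 4 CON 1W arrays and 0 CON 4W arrays. That bounds its drop at 1.36-fold or more (adjusted p = 0.0048). The dimmer probe passed the filter through the younger mice, where it was high. Its adjusted p was computed with undetected levels in the older controls, so the bound alone is read from this probe. In RES 4W Apoa4 read 7.55, 6.83, 6.75 and 7.03, a difference from CON 4W of -0.27 (adjusted p = 0.32) that became -0.44 (adjusted p = 0.02) without replicate 1. With all arrays ILMN_2834123 gave -0.26 (adjusted p = 0.41) and the dimmer ILMN_2754104 gave 0.02 (adjusted p = 0.94) in that comparison.

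Apob, the structural protein of the triglyceride-carrying particles, moved the other way with age. It read 6.96, 7.30, 7.44 and 7.38 in CON 1W and 8.41, 8.21 and 8.20 in CON 4W. It rose 2.01-fold (log2 fold change 1.00, SE 0.12, limma adjusted p = 0.00013). In RES 1W it read 6.86, 6.76, 6.87 and 6.97, a difference of -0.41 (SE 0.11) that missed the threshold at an adjusted p of 0.058 and passed it at 0.044 without RES 4W replicate 1. In RES 4W it read 8.50, 8.36, 8.54 and 8.42 (0.18, adjusted p = 0.36, and 0.16, adjusted p = 0.38, without replicate 1). The calls of Apoa4 and Apob with age held as each of the 15 arrays was left out in turn.

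Apoa2, the second protein of high density lipoprotein, rose 1.43-fold in RES 4W (log2 fold change 0.52, SE 0.15, limma adjusted p = 0.046), where 3.63% of all tested probes rose and 2.86% fell (6.49% in all). It read 7.43, 7.69 and 7.76 in CON 4W and 7.75, 8.21, 8.26 and 8.37 in RES 4W, and replicate 1 lay among the controls. Without it the difference was 0.65. The call held in 3 of 15 repeats with an array left out, its adjusted p running from 0.0016 to 0.16, and its second probe did not pass (0.23, adjusted p = 0.24). Apoc2, the activator of Lpl, differed by 0.43 with age (adjusted p = 0.1) and was detected in 1 of 4 CON 1W arrays. Apof was detected in 4 arrays, Apoa5 and Apoc4 in 0, and Clu had no named probe here.

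Among the lipases and their regulators 10 of 13 were tested, and 1 passed in each restriction comparison. Angptl4, a secreted inhibitor of Lpl, read 12.08, 11.87, 11.73 and 11.63 in CON 1W and 12.18, 12.74, 12.50 and 12.81 in RES 1W. It rose 1.66-fold (log2 fold change 0.73, SE 0.15, limma adjusted p = 0.015), where 1.42% of all tested probes rose and 1.38% fell (2.81% in all). In the older mice it read 11.66, 11.28 and 11.56 in CON 4W and 12.43, 12.18, 11.93 and 12.04 in RES 4W, a 1.57-fold rise (0.65, SE 0.16, adjusted p = 0.033, and 0.55, adjusted p = 0.023, without replicate 1). At the same 0.65 the call in RES 4W was lost with no filter on dim probes, with a replicate block and with the unmoderated test of the methods. The calls held in 12 and in 9 of 15 repeats with an array left out, with adjusted p up to 0.061 and 0.11. The first was lost without CON 1W replicate 3 or 4 or RES 1W replicate 4, and the second without any one CON 4W array or RES 4W replicate 2, 3 or 4. The effects did not pass a test of their difference (-0.08, SE 0.22, adjusted p = 0.88). Gpihbp1, which anchors Lpl on the capillary wall, differed by -0.49 in RES 1W (adjusted p = 0.23), and Lmf1, which folds Lpl, by -0.15 (adjusted p = 0.48). Pnpla2, the lipase of stored triglyceride, differed by 0.38 in RES 1W (adjusted p = 0.078, and 0.042 without RES 4W replicate 1). Mgll, the monoglyceride lipase, did not pass by its brightest probe in RES 4W (0.28, adjusted p = 0.35, and 0.07, adjusted p = 0.73, without replicate 1), whereas 2 dimmer probes did with all arrays (0.87, adjusted p = 0.019, and 0.46, adjusted p = 0.029).

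**Figure D3:**
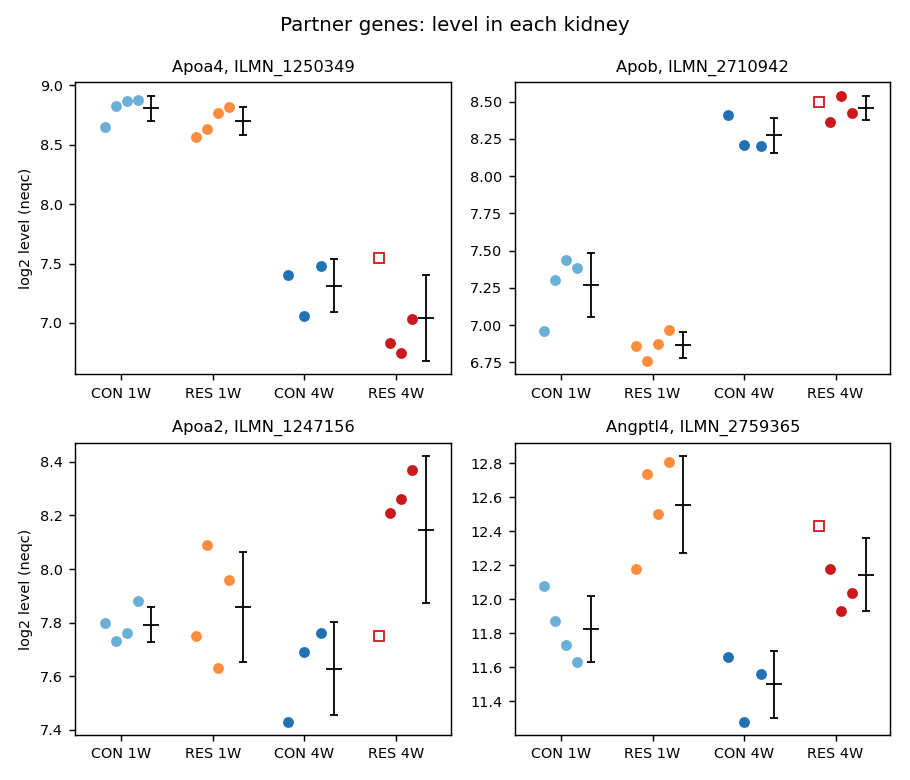
Level (log2, y axis) of Apoa4, Apob, Apoa2 and Angptl4 in each kidney array by group (x axis), with 1 point per array, black marks for mean ± SD and an open square for RES 4W replicate 1. Apoa4 and Apob separate the ages in opposite directions, and the RES arrays of Angptl4 lie above their controls at both ages.

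The other 3 lists held no gene that passed in any comparison with all arrays. Of particle assembly and remodelling 6 of 11 genes were tested, of lipoprotein receptors and uptake 11 of 16, and of transcription factors of apolipoprotein genes 10 of 18. Their counts at an unadjusted p under 0.05 were 1, 1 and 2 with age, 0, 4 and 3 in RES 1W, and 3, 1 and 2 in RES 4W, where 16.3%, 14.3% and 25.4% of all tested probes had such a p. Lrp2, the receptor that takes up filtered apolipoproteins, differed by -0.34 in RES 1W (adjusted p = 0.15) with every RES 1W array below every CON 1W array, while its dim second probe gave 0.09 (adjusted p = 0.89). Amn, the membrane partner of cubilin, differed by -0.25 (adjusted p = 0.19) and Cubn, detected in 1 of 4 CON 1W arrays and 4 of 4 RES 1W arrays, by 0.48 (adjusted p = 0.24). Hnf4a differed by 0.32 with age (adjusted p = 0.21) and by -0.27 in RES 4W (adjusted p = 0.19, and -0.30, adjusted p = 0.13, without replicate 1). Without RES 4W replicate 1, 41 genes were tested and 7 rose and 3 fell in RES 4W against CON 4W. Of all tested probes 24.2% passed there. That array was left out after these levels were seen, so p-values without it can be too small. Lsr, a receptor for triglyceride-rich particles (1.41, adjusted p = 3.9e-05), Ppargc1a, a coactivator of energy metabolism (0.83, adjusted p = 0.00012), Sorl1 (0.52, adjusted p = 0.02), Sar1b (0.29, adjusted p = 0.037), Apoa2, Angptl4 and Pltp rose. Sel1l (-0.54, adjusted p = 0.0024), Pon2 (-0.32, adjusted p = 0.023) and Apoa4 fell. A dim second Sel1l probe (ILMN_3060512) went the other way with all arrays. It was detected in 4 RES 4W arrays and 0 CON 4W arrays, at least 1.16-fold higher in RES 4W (adjusted p = 0.14). Pltp, the phospholipid transfer protein, was detected in 3 RES 4W arrays only, so it passed the filter through the group where it was high, and with all arrays it is given as at least 1.05-fold higher there (adjusted p = 0.11). With all arrays Lsr differed by 0.97 (adjusted p = 0.082), Ppargc1a by 0.61 (adjusted p = 0.052), Sorl1 by 0.36 (adjusted p = 0.21), Sar1b by 0.23 (adjusted p = 0.16), Sel1l by -0.41 (adjusted p = 0.076) and Pon2 by -0.24 (adjusted p = 0.16). No partner gene passed the test of a difference between the restriction effects by limma (5 at an unadjusted p under 0.05, where 18.7% of all tested probes had such a p and 0.583% were called). Without RES 4W replicate 1, 4 of 41 passed it (Apoa2, Apob, Sel1l and Lsr), where 15.1% of all tested probes did, and in RES 1W against CON 1W 4 passed (Apob, Pnpla2, Angptl4 and Ppargc1a), where 4.35% did.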

How the data were processed

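RNA of 15 kidneys was hybridized to Illumina MouseWG-6 arrays and read by the authors with GenomeStudio 1.0.2. The deposited probe intensities were already background-subtracted, as their values show (34.9% at or below 0). They were taken as quantile-normalized too, a step that the paper names. The deposited detection p-values give the chance of such a signal from negative controls. The authors' processed log2 values, missing for 52.2% of entries, were used as an alternative. Levels were computed with limma 3.58.1 in R 4.3.3 by neqc (normexp on intensities and detection p-values, offset 16, quantile normalization), so background was corrected a second time, which mostly moves dim probes. The tested probes, those detected at p under 0.05 in 3 or more arrays, entered lmFit and eBayes with 4 group means, with no covariate, two-sided, and Benjamini-Hochberg adjustment over all 19027. The number of arrays limits the precision.

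Every probe of the listed genes was described without a test, and the tested probe with the highest mean level stood for its gene. The members and lists were chosen with earlier results of these data known. Partner genes were named when their adjusted p was under 0.05, other apolipoproteins always, and for members whose group means spanned over 1 the 3 nearest patterns. Lrp2, Amn, Hnf4a, Gpihbp1, Lmf1, Pnpla2, Mgll and the genes that passed without RES 4W replicate 1 were named for their roles after their values were seen. Marker lists of proximal tubule, hepatocyte, adipocyte, macrophage and other cells were fixed likewise. The scripts were tested on simulated data. The limma p-values set each difference against the spread between arrays within groups. That spread was estimated over all 4 groups and moderated over all tested probes.

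In the platform annotation 34885 of 45281 probes carried a single gene symbol, 18 carried more and 10378 carried no symbol. Alternatives were other background correction, offset, scaling, filters, the authors' processed values, array weights, a replicate block, the ANOVA and the t-test of the methods, the mean over a gene's probes, and leaving out each array.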

Additional observations from a re-analysis of the deposited data

Results flagged for a closer look

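Apom by probe ILMN_2769418 had 1 RES 1W array far from the other 3, replicate 3 at 12.57 where the others lay at 12.82 to 12.85. It was the 1 array that stood out in 39 groups of 4 arrays examined, and chance alone sets apart about 1 in 20 groups.

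Lpl by probe ILMN_2585447 lay below its control mean in every RES 1W array and above it in every RES 4W array, a measured difference between the restriction effects of 0.96 (log2). The difference was not tested. The probe was detected in 3 RES 4W arrays and in no other group, so it passed the filter through the group where it was high. The RES 1W values and the undetected RES 4W array carry no order, and the RES 4W mean was at least 1.28-fold higher than CON 4W.

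Apob by probe ILMN_2710942 had restriction effects that differed by 0.58 (log2, SE 0.16), with every RES 1W array on the lower side of its control mean and every RES 4W array on the upper side. By limma the adjusted p of the difference was 0.084, and 0.029 without RES 4W replicate 1.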

How the results depend on the processing

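The signs of the member probes' log2 fold changes held under the alternative settings and left-out arrays for age, RES 1W and RES 4W, except for values near 0 (Apoc3 in RES 1W, Apom in RES 1W and RES 4W). Of the member values under an alternative 789 stayed within the spread between replicates and 7 moved beyond it, all on dim probes (the second Lpl probe in RES 4W was 1.18 with no further background correction and 0.39 with an offset of 50, against 0.82). Counts of called probes were 565 with age, 534 in RES 1W, 1235 in RES 4W and 111 for the difference between the restriction effects, with 2, 1, 2 and 0 partner genes. With no further background correction the difference gave 64 probes and RES 4W 1 partner gene, with an offset of 50 the difference gave 268 and RES 1W 3 partner genes, and with the authors' processed values the difference gave 53, RES 1W 2 and RES 4W 1 partner genes. With no filter RES 4W gave 510 probes and 0 partner genes and the difference 27, and with a stricter filter RES 1W gave 3 partner genes and the difference 288 probes. Array weights, which gave RES 4W replicate 1 a weight of 0.22, raised RES 4W to 5129 probes and 11 partner genes, the difference to 2878 and 5, and RES 1W to 3 partner genes. The replicate block gave 819 probes and 0 partner genes in RES 4W. Deviations of same-numbered arrays correlated between -0.10 and 0.19. Replicate 1 matched its own number best in every comparison (0.19, 0.08 and 0.01) and no other replicate did. With so few arrays per group, these values cannot decide whether the numbers pair the arrays. The methods' ANOVA at an adjusted p under 0.05 gave 400 probes and 0 partner genes in RES 4W and 23 for the difference. At the methods' own thresholds it gave 124 probes with age, 92 and 0 partner genes in RES 1W, 11 and 0 partner genes in RES 4W, and 0 probes for the difference. The methods' t-test, unadjusted, gave 3010 probes and 10 partner genes with age, 2815 and 12 in RES 1W and 2994 and 6 in RES 4W, and after Benjamini-Hochberg adjustment 79 and 1, 115 and 0, and 0 and 0. Leaving out 1 array at a time gave 278 to 923 probes with age, 290 to 822 in RES 1W, 169 to 4574 in RES 4W and 16 to 2857 for the difference, and 2 to 2, 0 to 4, 0 to 10 and 0 to 4 partner genes. The calls of Apoa2 and Angptl4 in RES 4W were lost with no filter, with the replicate block and with the ANOVA, although the log2 fold change of Angptl4 stayed at 0.65, and that of Apoa2 also with no further background correction, the authors' processed values and the mean over its probes. The cause of these shifts was not tested. Dim probes such as those of Apoa1 and Apoc1 lie close to background, which limits what their fold changes show.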
